A study of Homo sapiens with 6 samples.

Results

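The clustered histone genes are the histone genes whose symbols begin with HIST1H, HIST2H, HIST3H or HIST4H, and 71 of the 19942 gene symbols in the expression tables met that rule. They comprised 6 H1, 17 H2A, 18 H2B, 15 H3 and 15 H4 genes. By cluster, 55 belonged to HIST1 on chromosome 6, 12 to HIST2 and 3 to HIST3, both on chromosome 1, and 1 to HIST4 on chromosome 12. The tables came from 6 RNA-seq libraries of the established human line HCT116, a colorectal carcinoma. Parental cells, labelled wild-type, were set beside cells with resistance to 5-fluorouracil (5-FU), a pyrimidine analogue used against colorectal cancer. Both were profiled untransfected, with a control siRNA and with an siRNA to EHMT2, the gene for the histone H3 lysine 9 methyltransferase G9a. All 6 groups shared the HCT116 background, and each held 1 library, so single pairs of libraries carry neither replicate check nor p-value. Levels are FPKM, fragments scaled to transcript length and to the mapped fragments of the library, and a gene was called measured at 1 FPKM or more.

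Clustered histone genes supply the bulk of the histones that package newly made DNA, so they are transcribed mainly in S phase. Their main messages are unusual in having no poly(A) tail: they end just after a short RNA stem-loop, which is bound by SLBP and formed with the help of the U7 snRNP. Some of the genes also make longer, polyadenylated messages, which are known from differentiating and non-dividing cells. The TruSeq RNA v2 kit used here selects polyadenylated RNA, so the values below describe the captured message. How much of each gene's message was polyadenylated cannot be told from these tables.

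The stem-loop is shown first because it separates the usual message end from the longer, tailed form. Its 16-base consensus was searched on the sense strand of GENCODE 29 transcripts (build GRCh38), with a loop of 3 T and any 1 base, and 31 of the 71 genes held it. Many models stop at the coding sequence, so a missing match says nothing about the gene; of the 36 genes whose models reach at least 30 bases beyond the stop codon, 31 held it. There were 5 versions, given here 5′ to 3′ as DNA letters with the paired stem in capitals and the loop in lower case.
Version of 17 genes including HIST1H2AC, HIST2H2AA3 and HIST2H2BE: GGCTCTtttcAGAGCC
Version of HIST1H2BC, HIST1H2BD and 3 others: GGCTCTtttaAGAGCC
Version of HIST1H4I, HIST2H4A and HIST2H4B: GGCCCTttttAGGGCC
Version of HIST1H4J and 4 other H4 genes: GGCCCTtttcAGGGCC
Version of HIST1H2AG: GGCTCTtttcAGGGCC
The third and the fourth version belonged to H4 genes alone. All 3 genes of the former were measured, whereas none of the 5 genes of the latter reached 1 FPKM, with HIST1H4J at up to 0.990. Of all 15 H4 genes 4 were measured. HIST2H4A and HIST2H4B are copies, and HIST2H4B was measured only with EHMT2 siRNA. A link between version and level was not tested.

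The promoters of 4 genes are shown because their genes carry the results below: HIST1H2BK and HIST1H1C had the highest levels, HIST2H2AA3 and HIST1H2BC had among the highest ratios with EHMT2 siRNA. Sequences are from RefSeq on GRCh38.p14, each on the minus strand and ending at the base before the annotated start. Capitals mark matches on either strand to TATAAA, the letters of the TATA box, to CCAAT and, as an octamer, to ATTTGCAT. The octamer is the site through which POU2F1 is known to act on H2B genes. The HIST1H2BC stretch, 245 bases at chr6:26123927-26124171, is the whole interval to its divergent neighbour HIST1H2AC. Its only match to TATAAA reads on the opposite strand, printed as TTTATA, and lies nearer the HIST1H2AC start than the HIST1H2BC start. The others are 200 bases of HIST1H2BK at chr6:27146856-27147055, 250 bases of HIST1H1C at chr6:26056471-26056720 and 250 bases of HIST2H2AA3 at chr1:149842751-149843000.
HIST1H2BC: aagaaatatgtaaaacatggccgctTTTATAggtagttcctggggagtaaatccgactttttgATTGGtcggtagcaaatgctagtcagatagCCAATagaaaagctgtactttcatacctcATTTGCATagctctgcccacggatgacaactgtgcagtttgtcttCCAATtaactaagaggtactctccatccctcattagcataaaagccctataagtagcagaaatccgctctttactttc
HIST1H2BK: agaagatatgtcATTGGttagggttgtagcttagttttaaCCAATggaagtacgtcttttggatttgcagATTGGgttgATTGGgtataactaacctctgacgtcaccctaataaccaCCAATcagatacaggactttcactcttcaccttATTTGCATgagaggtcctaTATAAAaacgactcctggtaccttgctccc
HIST1H1C: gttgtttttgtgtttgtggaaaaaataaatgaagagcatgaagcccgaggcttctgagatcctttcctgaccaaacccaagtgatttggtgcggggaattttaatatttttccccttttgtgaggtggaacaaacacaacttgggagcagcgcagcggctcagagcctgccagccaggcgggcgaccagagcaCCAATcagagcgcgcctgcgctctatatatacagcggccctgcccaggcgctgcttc
HIST2H2AA3: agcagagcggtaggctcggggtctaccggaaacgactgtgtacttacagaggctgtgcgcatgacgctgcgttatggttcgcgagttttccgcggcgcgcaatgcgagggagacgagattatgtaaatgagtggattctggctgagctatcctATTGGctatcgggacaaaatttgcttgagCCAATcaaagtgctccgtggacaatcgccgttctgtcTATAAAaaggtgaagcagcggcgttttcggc
Over the 250 bases before the start, 66 of the 71 genes had a promoter in the RefSeq table. TATAAA stood in 45 of these (68.2%), against 11.1% of all 27305 promoters, and CCAAT in 56 (84.8%), against 33.0%. The octamer stood in 25 genes, all of them H2A or H2B: 25 of 34 (73.5%) against 0 of 32 genes of the other types and 1.66% of all promoters. None of the motifs set measured genes apart, since TATAAA stood in 16 of 23 measured and 29 of 43 unmeasured genes, CCAAT in 20 and 36, and the octamer in 8 and 17. Both strands were searched, and the GENCODE starts of 11 divergent H2A-H2B pairs lie 219 to 331 bases apart. The 250-base windows of such a pair overlap, so the same match can count for both genes. It may also lie nearer the start of the neighbour. Such matches were not separated in these counts. A match is a description of these letters, not evidence of binding.

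**Figure D1:**
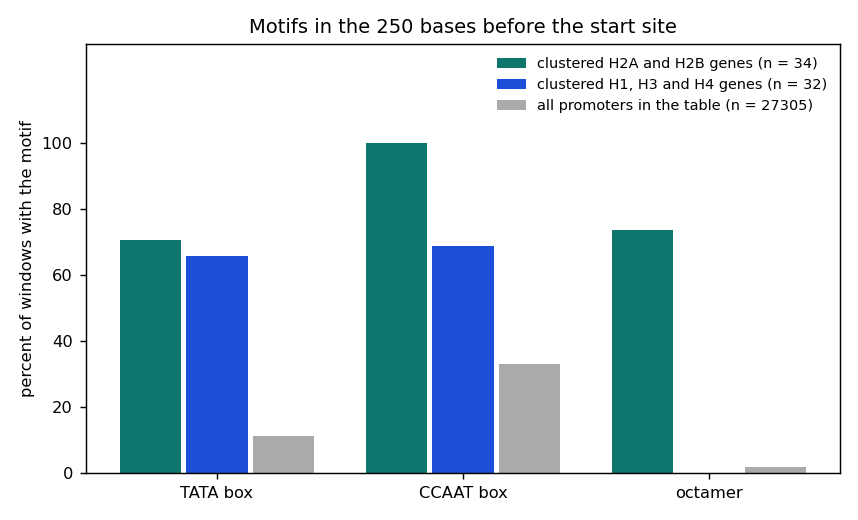
Percent of promoter windows (250 bases before the start, vertical axis) that hold each motif on either strand, for 34 clustered H2A and H2B genes, 32 clustered H1, H3 and H4 genes, and 27305 promoters of all genes. The octamer bar stands at 73.5% for H2A and H2B genes and at 0 for the other types.

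Markers and the siRNA target were read first. Of 10 intestinal epithelial markers 7 stood at 1 FPKM or more in every library, with KRT20, CDH17 and VIL1 below. By library 0 to 1 of 6 leukocyte markers and 1 of 8 fibroblast and endothelial markers did. The summed FPKM was 1772 to 2689 for the epithelial, 1.22 to 5.64 for the leukocyte and 3.35 to 9.79 for the fibroblast and endothelial markers. EHMT2 stood at 31.7 FPKM with control siRNA and 8.58 with EHMT2 siRNA in parental cells, at 19.5 and 3.80 in resistant cells, and at 19.8 and 27.3 in the untransfected parental and resistant cells. No read counts are in the files, so depth is unknown, and the lowest value above 0 was 0.172 to 0.264 FPKM, about the level of many histone genes below.

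Of the 71 genes, 24 were measured in at least 1 library, 20 others were above 0 but stayed below 1 FPKM, and 27 were listed at 0 in all 6. By type the measured genes were 2 of 6 H1, 7 of 17 H2A, 7 of 18 H2B, 4 of 15 H3 and 4 of 15 H4. Only 7 were measured in every library, and 10 reached 5 FPKM in any. The genes nearest the threshold were HIST2H3C at 1.01 and HIST1H3J at 1.03 FPKM above it, and HIST1H4J at 0.990, HIST1H2AG at 0.977 and HIST2H3A at 0.970 below it. The number of measured genes was 8 in each control siRNA library, 10 and 12 in the untransfected parental and resistant cells, and 24 and 17 in the parental and resistant cells with EHMT2 siRNA. All 24 were measured in an EHMT2 siRNA library, 13 in an untransfected one and 9 in a control siRNA one. For the 11 measured only with EHMT2 siRNA the threshold itself selects a high value there, so the counts that lead below rest on the 13 measured in untransfected cells, or on all 71.

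The summed FPKM of all 71 genes was 40.2, 62.2 and 216 in parental cells with control siRNA, untransfected and with EHMT2 siRNA, and 39.2, 103 and 173 in resistant cells in the same order. These sums are 0.0101% to 0.0600% of all FPKM in a library. Both control siRNA libraries were lowest and both EHMT2 siRNA libraries highest, with a sum 5.39-fold and 4.41-fold above the control in parental and resistant cells. H2B genes held 47.2% to 54.0% of the sum in every library, and H3 and H4 together held less than H1 or H2A genes. HIST1H2BK, HIST1H1C and HIST1H2BD were the 3 highest genes in all 6 libraries and made up 54.3% to 67.8% of the sum. For scale, the replication-independent H3.3 genes H3F3A and H3F3B summed to 364 to 481 FPKM, whereas all 15 clustered H3 genes summed to 1.02 to 12.5 FPKM.

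**Figure D2:**
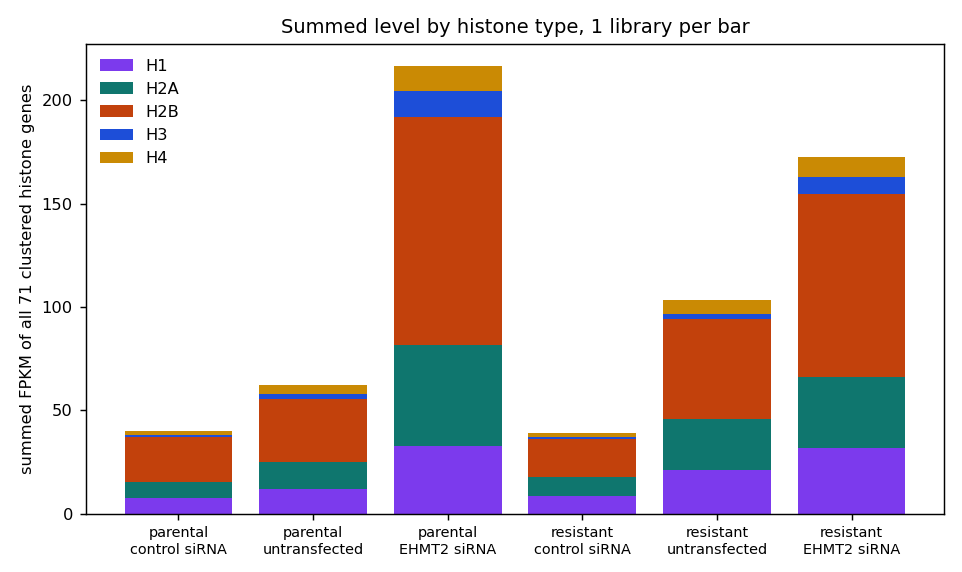
Summed FPKM (vertical axis, from 0) of all 71 clustered histone genes in each of the 6 libraries, stacked by histone type. The EHMT2 siRNA libraries reach 216 in parental and 173 in resistant cells, and the control siRNA libraries 40.2 and 39.2.

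With EHMT2 siRNA, the clustered histone genes were higher than with control siRNA in both lines. Of the 13 genes measured in untransfected cells, 12 in parental and 10 in resistant cells were at least 2-fold higher, and the ratio was above 0 for all 13 in both. The background was 7.48% of 11948 genes at least 2-fold higher in parental and 5.22% of 11750 in resistant cells. The median log2 ratio of these 13 (of FPKM with 1 added, as for every ratio below) was 1.98 and 1.53 in parental and resistant cells, against 0.09 and 0.06 over all genes measured. None of the 71 was 2-fold lower, where 3.51% and 4.04% of genes were. Taking all 71 with no threshold, 38 were higher, 1 lower and 32 equal in parental cells, and 34, 1 and 36 in resistant cells, the equal ones all at 0 in both libraries. Over all 19942 genes, 7752 were higher and 5741 lower in parental cells, and 7383 and 5967 in resistant cells. In bulk RNA, a change in the share of cells that make a message and a change in its amount per cell cannot be told apart.

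Across both lines, the EHMT2 siRNA effect was tested with limma, where the disagreement between the lines serves as the error. In the fit of the 4 siRNA libraries 8 of the 9 clustered histone genes tested rose: HIST1H1C, HIST1H2AC, HIST2H2AA3, HIST2H2AA4, HIST1H2BD, HIST1H2BK, HIST1H3E and HIST1H4I. The background was high, with 24.3% of 11182 genes called higher. Log2 changes of the 8 ran from 0.96 (SE 0.18) for HIST1H2AC to 2.56 (SE 0.16) for HIST2H2AA4, with limma adjusted p-values of 0.00045 to 0.00586. The exception was HIST3H2A, at 0.43 (SE 0.21, adjusted p = 0.144). In the fit of all 6 libraries the estimates were the same. No gene of any kind was called higher or lower there (0% of 11521), and 1780 were higher at an unadjusted limma p under 0.05. Of 13 clustered histone genes 12 had an unadjusted limma p under 0.05, and adjusted p-values ran from 0.0529 to 0.343. Of these 13, HIST1H2BC, HIST1H3E, HIST2H2AC, HIST2H2BE and HIST2H4A met the minimum of 3 libraries only through EHMT2 siRNA libraries, where they were high. Among the 9 measured with control siRNA, which include HIST1H3E, 8 had an unadjusted limma p under 0.05. Since the fits differ, the call rests on which libraries supply the error. Clustered histone genes were called when an untransfected library was left out, and none was called when any siRNA library was left out. The share of all genes called in those fits is not given here, so their counts are left out. Where an untransfected library was left out, the lone library that remained was assumed to vary like the others. Nothing in the labels says that libraries came from separate cultures.

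**Figure D3:**
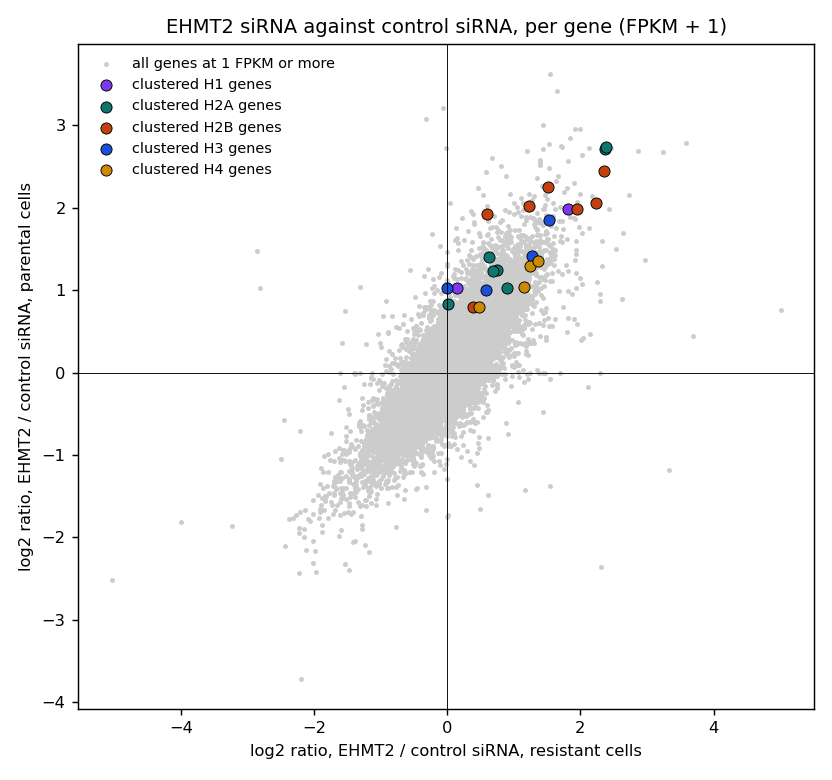
Log2 ratio of EHMT2 siRNA to control siRNA (FPKM with 1 added) in resistant cells (horizontal) and parental cells (vertical), 1 point per gene; grey points are all genes at 1 FPKM or more in any library and coloured points the 24 measured clustered histone genes by type. All 24 stand above 0 in parental cells, but 11 of them reached 1 FPKM only with EHMT2 siRNA, where the threshold selects a high value. The gene on the vertical line at 0, HIST1H3J, was listed at 0 in both resistant siRNA libraries.

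Among the linker histones, which bind the DNA entering and leaving the nucleosome, HIST1H1C (H1.2) was by far the highest. It lies at chr6:26055787-26056428. Its FPKM was 7.11 with control siRNA, 11.9 untransfected and 31.0 with EHMT2 siRNA in parental cells, and 8.21, 21.3 and 31.5 in resistant cells. The EHMT2 siRNA level was thus about the same in both lines, while the untransfected level was higher in resistant cells. In both fits its EHMT2 siRNA term was 1.90 on the log2 scale (SE 0.24 in the 6-library and 0.12 in the 4-library fit). HIST1H1E (H1.4) was low, at 0.463, 0 and 1.98 FPKM in parental and 0.254, 0 and 0.388 FPKM in resistant cells with control siRNA, untransfected and with EHMT2 siRNA. The 4 other H1 genes, HIST1H1A, HIST1H1B, HIST1H1D and the testis gene HIST1H1T, were listed at 0 in all libraries.

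H2A genes, which encode one partner of the H2A-H2B dimer, included both the highest ratios and the exception. HIST2H2AA3 stood at 1.60, 1.58 and 16.0 FPKM with control siRNA, untransfected and with EHMT2 siRNA in parental cells and at 1.32, 3.18 and 11.0 in resistant cells. HIST2H2AA4 gave nearly the same values, 1.61, 1.60 and 16.4 in parental and 1.36, 3.25 and 11.4 in resistant cells. The pair, at chr1:149842188-149842736 and chr1:149851061-149851624, are near-identical copies among which reads could be split, so they are best read as 1 gene. Their log2 ratios, 2.71 and 2.74 in parental and 2.37 and 2.39 in resistant cells, were the highest of the measured genes in each line.

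HIST1H2AC, at chr6:26124145-26139116, stood at 1.83, 4.43 and 5.62 FPKM in parental cells and 2.36, 7.51 and 4.42 in resistant cells, again as control siRNA, untransfected and EHMT2 siRNA. In resistant cells its EHMT2 siRNA level thus lay below the untransfected one. HIST3H2A, the H2A gene of the small HIST3 cluster at chr1:228456979-228457873, was highest in untransfected cells of both lines. It stood at 1.62, 4.50 and 3.69 FPKM in parental and 3.51, 5.90 and 3.57 in resistant cells, a knockdown ratio of 0.84 and 0.02. HIST2H2AC stood at 0.309, 0.303 and 1.66 FPKM in parental and 0.316, 1.77 and 1.46 FPKM in resistant cells. HIST1H2AI reached 1.63 FPKM and HIST1H2AM 1.36, both in parental cells with EHMT2 siRNA, and both were listed at 0 in each control siRNA library. HIST1H2AM is uncertain, since 88.0% of its exonic bases are shared with HIST1H3J.

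H2B genes carried the most message. HIST1H2BK, at chr6:27146418-27146798, was the highest clustered histone gene in every library: 14.6, 21.6 and 60.3 FPKM with control siRNA, untransfected and with EHMT2 siRNA in parental cells, and 12.3, 29.3 and 50.2 in resistant cells. Its EHMT2 siRNA term was 1.96 (SE 0.23, limma adjusted p = 0.0529 in the 6-library fit, and SE 0.11, adjusted p = 0.00045 in the 4-library fit). HIST1H2BD, at chr6:26158146-26171349, stood at 5.57, 7.06 and 26.2 FPKM in parental and 4.65, 12.6 and 25.7 FPKM in resistant cells, with a term of 2.15 (SE 0.28 and 0.13).

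HIST1H2BC, at chr6:26114873-26123926, stood at 0.762, 0.332 and 8.58 FPKM in parental and 0.207, 1.85 and 5.20 FPKM in resistant cells. Its ratios of 2.44 and 2.36 were close to those of HIST2H2AA3, although its control values are near the lowest that the tables list. HIST2H2BE, at chr1:149884459-149886652, stood at 0.517, 0.997 and 6.18 FPKM in parental and 0.543, 2.14 and 3.41 FPKM in resistant cells. The lower H2B genes HIST1H2BN, HIST1H2BJ and HIST2H2BF were measured only with EHMT2 siRNA, so the threshold selects a high value there. They reached 3.04, 2.78 and 1.19 FPKM in parental cells with EHMT2 siRNA, against 1.85, 1.12 and 0.586 in resistant cells. Their control siRNA values were 0, 0 and 0.266 FPKM in parental and 0.216, 0.405 and 0.209 FPKM in resistant cells.

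H3 and H4 genes encode the core tetramer, and H3 carries the lysine 9 that EHMT2 methylates. HIST1H3E, at chr6:26224199-26227473, was the only H3 gene above 5 FPKM, at 0.741, 1.77 and 5.28 in parental and 1.02, 0.806 and 4.83 in resistant cells with control siRNA, untransfected and with EHMT2 siRNA. Its EHMT2 siRNA term was 1.69 (SE 0.27 and 0.16 in the 6- and 4-library fits). HIST1H3H stood at 0.326, 0.478 and 2.54 FPKM in parental and 0, 0.661 and 1.43 FPKM in resistant cells. HIST2H3C and HIST1H3J only just passed the threshold in parental cells with EHMT2 siRNA, and HIST1H3J shares 44.6% of its exonic bases with HIST1H2AM.

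HIST1H4I, at chr6:27138588-27139881, was the highest H4 gene in every library, at 1.11, 1.39 and 4.37 FPKM in parental and 0.989, 2.27 and 4.12 FPKM in resistant cells. Its term was 1.36 (SE 0.24 and 0.15), and its ratios of 1.35 and 1.36 were alike in both lines. HIST2H4A stood at 0.333, 1.10 and 2.27 FPKM in parental and 0.304, 1.18 and 2.09 FPKM in resistant cells. HIST2H4B, a copy of it in the same cluster, stood at 0.342, 0.651 and 1.74 FPKM and at 0.285, 0.891 and 1.86 FPKM. HIST1H4K reached 1.40 FPKM in parental cells with EHMT2 siRNA. Every H4 gene thus stayed under 5 FPKM in all libraries.

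**Figure D4:**
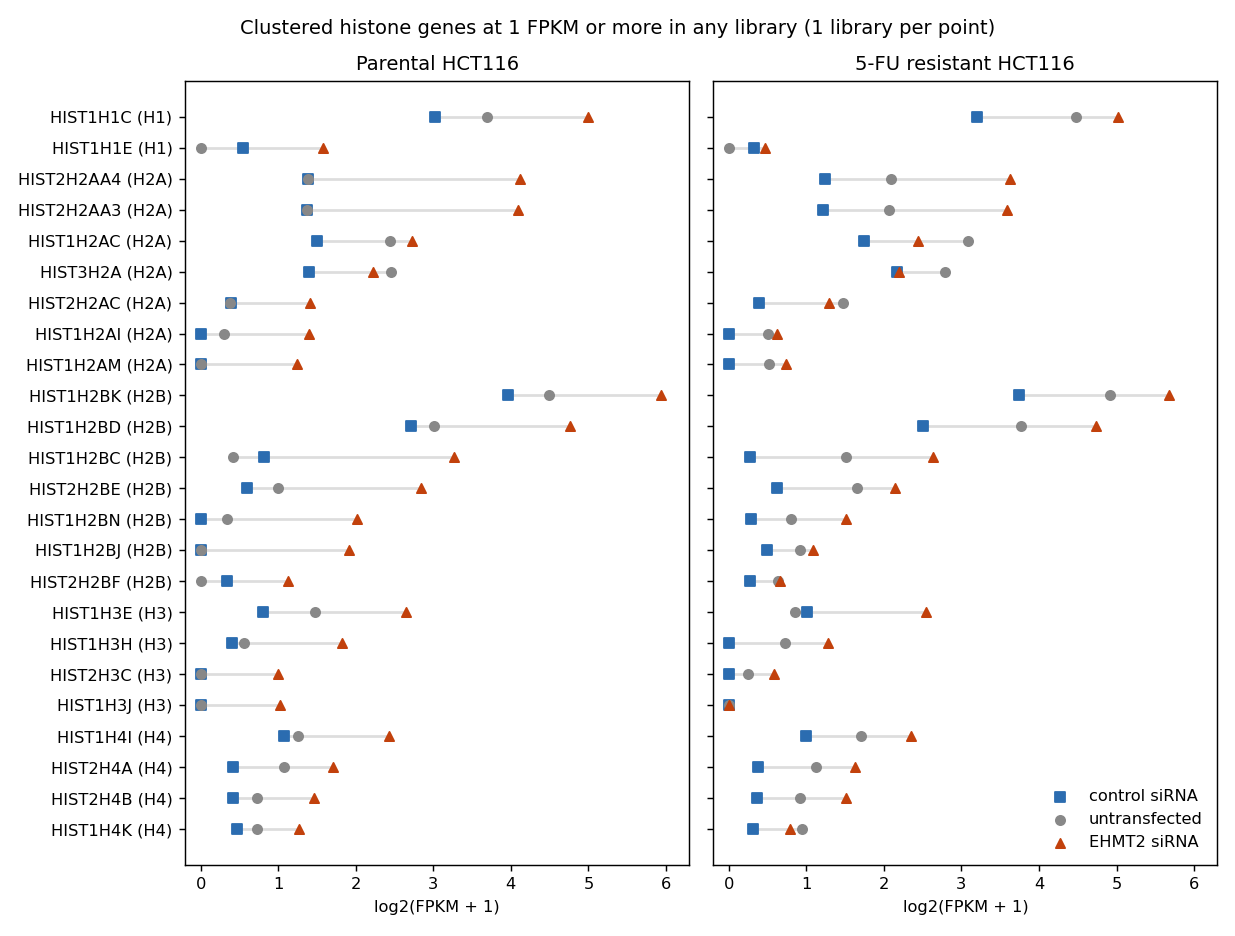
Level (log2 of FPKM with 1 added, horizontal axis) of the 24 measured clustered histone genes in the 3 libraries of each line, 1 library per point, ordered by type and mean level. EHMT2 siRNA (triangles) is the highest point for 23 genes in parental and 19 in resistant cells. HIST3H2A is highest in untransfected cells in both. For the 11 genes that reached 1 FPKM only with EHMT2 siRNA, the threshold selects a high value there.

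The knockdown ratio differed between the lines for single genes. Over the 13 genes measured in untransfected cells, the parental ratio was the higher for 11, by a median of 0.16 on the log2 scale, against 0.04 and 55.1% of 12310 genes overall. Over all 24 the median was 0.34, but the threshold selects high parental values, since several genes were measured only in parental cells with EHMT2 siRNA. The gap was widest for HIST1H2BJ, 1.92 against 0.60, and HIST1H2BD had the lowest, 2.05 against 2.24. This difference has no replicate and was not tested.

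Control siRNA lowered no clustered histone gene past the test, but in resistant cells many were lower than in untransfected cells. The sum over all 71 genes with control siRNA was 0.378-fold that of untransfected cells in resistant and 0.645-fold in parental cells. Of the 71 with no threshold, 33 were lower, 3 higher and 35 equal in resistant cells, and 17, 7 and 47 in parental cells. Over all 19942 genes, 7293 were lower and 6011 higher in resistant cells, and 6215 and 6954 in parental cells. At least 2-fold lower in resistant cells were 7 of 13 genes, against 3.87% of 11666 genes. In parental cells 1 of 10 was, HIST3H2A, against 2.08% of 11631. The 7 were HIST1H1C, HIST1H2AC, HIST1H2BC, HIST1H2BD, HIST1H2BK, HIST2H2AC and HIST2H2BE, with log2 ratios of -1.03 to -1.34. Of these, HIST1H2BC, HIST2H2AC and HIST2H2BE were measured in untransfected but not in control siRNA libraries, so the threshold selects their high value, and among the 9 genes measured with control siRNA the count was 4. None was 2-fold higher, against 4.31% of genes in resistant and 0.954% in parental cells. The median was -1.03 in resistant and -0.40 in parental cells over the 13 genes measured in untransfected cells, and -0.85 and -0.54 over the 9 measured with control siRNA, against -0.04 and 0.03 over all genes. The limma control siRNA term called none of 13 (0.0434% of all genes were called), 6 had an unadjusted p under 0.05, and adjusted p-values were 0.700 to 0.875. The calls changed without the untransfected parental library, when the term comes from resistant cells alone. The share of all genes called in that fit is not given here, so its count is left out. The control siRNA library stands in both this comparison and the knockdown comparison, so a low value there moves both.

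Against untransfected cells, the summed level with EHMT2 siRNA was higher, but by less than against control siRNA. The sum over all 71 genes was 3.48-fold that of untransfected cells in parental and 1.67-fold in resistant cells. By type these folds were 2.76 and 1.5 for H1, 3.68 and 1.4 for H2A, 3.65 and 1.82 for H2B, 4.79 and 3.52 for H3, and 2.77 and 1.47 for H4. Of the 24 measured genes 4 were lower with EHMT2 siRNA than untransfected in resistant cells, HIST1H2AC, HIST3H2A, HIST2H2AC and HIST1H4K, and 1 in parental cells, HIST3H2A. However, 11 of the 24, HIST1H4K among them, were measured only with EHMT2 siRNA, where the threshold selects a high value. The median log2 ratio over the 24 was 1.21 in parental and 0.50 in resistant cells. Over all genes measured it was 0.11 and 0.03.

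Between the lines, the order of the clustered histone sum turned with the treatment. The sum over the 71 genes was 1.66-fold higher in untransfected resistant cells, 0.975-fold with control siRNA and 0.798-fold with EHMT2 siRNA. With no threshold, resistant cells had the higher value for 33 of the 71 genes and the lower for 3 when untransfected. Under control siRNA those numbers were 9 and 14, and under EHMT2 siRNA 4 and 36. At least 2-fold higher in untransfected resistant cells were 2 of 13 genes, HIST1H2BC and HIST2H2AC, against 3.48% of 11731 genes, and none was 2-fold lower, against 3.92%. Both passed the threshold of this pair only in the resistant library, where they are high, and none of the 9 genes measured with control siRNA was 2-fold higher. With control siRNA none of 9 differed 2-fold in either direction (1.6% of genes higher and 0.96% lower). With EHMT2 siRNA none of 24 was 2-fold higher (1.54%) and 2 were lower (1.55%), HIST1H1E and HIST1H3J, both measured only in the parental EHMT2 siRNA library; none of the 13 genes measured in untransfected cells was lower by 2-fold. The limma line term called none of 13 in the 6-library fit (0% of genes, no unadjusted p under 0.05) and none of 9 in the 4-library fit (10.1% of genes, again with no unadjusted p under 0.05).

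Many H2A and H2B genes stand head to head, and in some such pairs the 2 genes had very different levels. There were 11 divergent H2A-H2B pairs with GENCODE starts 219 to 331 bases apart: both genes were measured in 2 pairs, 1 gene in 5 and neither in 4. In some of the 5 the measured gene stayed low, such as HIST1H2AM, at most 1.36 FPKM. HIST1H2AK and HIST1H2BN were not counted, although their RefSeq starts, chr6:27838375 and chr6:27838569, also stand head to head. HIST1H2BK, at 12.3 to 60.3 FPKM, faces HIST1H2AH, which was listed at 0 in all libraries. HIST1H2BC and HIST1H2AC share the interval printed above, with its octamer and 3 matches to CCAAT. HIST1H2AC was higher in untransfected cells, 4.43 against 0.332 FPKM in parental and 7.51 against 1.85 FPKM in resistant cells, while HIST1H2BC was higher with EHMT2 siRNA, 8.58 against 5.62 and 5.20 against 4.42 FPKM. Their knockdown ratios were 2.44 and 1.23 in parental cells, and 2.36 and 0.69 in resistant cells. HIST3H2A faces HIST3H2BB, which did not pass 0.311 FPKM.

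Some histone genes have annotated transcripts that run on beyond the stem-loop. Transcripts reaching more than 100 bases past it were listed for 11 of 24 measured genes (45.8%) and 11 of 47 others (23.4%). Among genes whose models reach at least 30 bases beyond the stop codon, the shares were the same, 11 of 18 in each group. Coding models with more than 1 exon were listed for 7 of 24 and 2 of 47, among them HIST1H2AC, HIST1H2BC, HIST1H2BD and HIST1H3E. The longest stretches past the stem-loop among measured genes were 1729 bases in HIST2H2BE and 1479 in HIST2H2BF. The 22 genes with such transcripts nevertheless held only 18.3% to 24.6% of the summed FPKM, since the models of HIST1H2BK and HIST1H1C end at the coding sequence. These shares are a description with no test, and they depend on which gene models the annotation extends.

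Genes that work with the clustered histones did not follow them. In the 4-library limma fit, 24.3% of all genes were called higher and 19% lower, and the counts of each list stand against those shares. Of 25 genes for histone gene transcription and message processing none was 2-fold higher or lower with EHMT2 siRNA in either line, with median ratios of -0.09 in parental and -0.03 in resistant cells. In the 4-library fit HINFP, a regulator of H4 genes, rose by 0.58 (SE 0.14), and 4 genes fell, a share of the list close to that of all genes, among them NPAT, the coactivator of histone loci, at -0.53 (SE 0.16). SLBP was at -0.16 (SE 0.15, limma adjusted p = 0.4) and CASP8AP2 at -0.06 (adjusted p = 0.760). Of 12 factors for polyadenylation and histone message decay 1 rose, LSM1, by 0.74 (SE 0.11), and none fell.

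Genes of DNA replication, the process with which clustered histone genes are normally coupled, were lower with EHMT2 siRNA than with control siRNA. In the 4-library fit 32 of 40 fell and none rose, with MCM5 at -2.07 (SE 0.13) and PCNA among them, and the median ratio was -0.77 in parental and -0.78 in resistant cells. Against untransfected cells the lines differed: control siRNA stood higher for 39 of 40 in parental cells (median 0.71) and lower for 37 of 40 in resistant cells (median -0.55). The EHMT2 siRNA level against untransfected had a median of -0.11 in parental cells, with 26 of 40 lower, and of -1.43 in resistant cells, with 38 of 40 lower. Of 24 histone chaperones 11 fell in the 4-library fit, including CHAF1A at -0.89 and ASF1B at -0.87, and 2 rose, HAT1 and NAP1L4. The replacement histones, which are made outside S phase as well as in it and mostly have polyadenylated messages, were also mostly lower. Of the 11 measured, 7 fell in the 4-library fit, among them H2AFX at -1.04, H1F0 at -0.97 and H2AFZ at -0.40, while H2AFJ rose by 1.32 (SE 0.15). H3F3A at 0.08 and H3F3B at 0.22 did not pass. In the 6-library limma fit none of these lists had a gene called over all genes; at an unadjusted p under 0.05, 14 replication genes, 5 chaperones and 5 replacement histones were lower, and 1 replacement histone and 1 polyadenylation or decay factor higher.

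**Figure D5:**
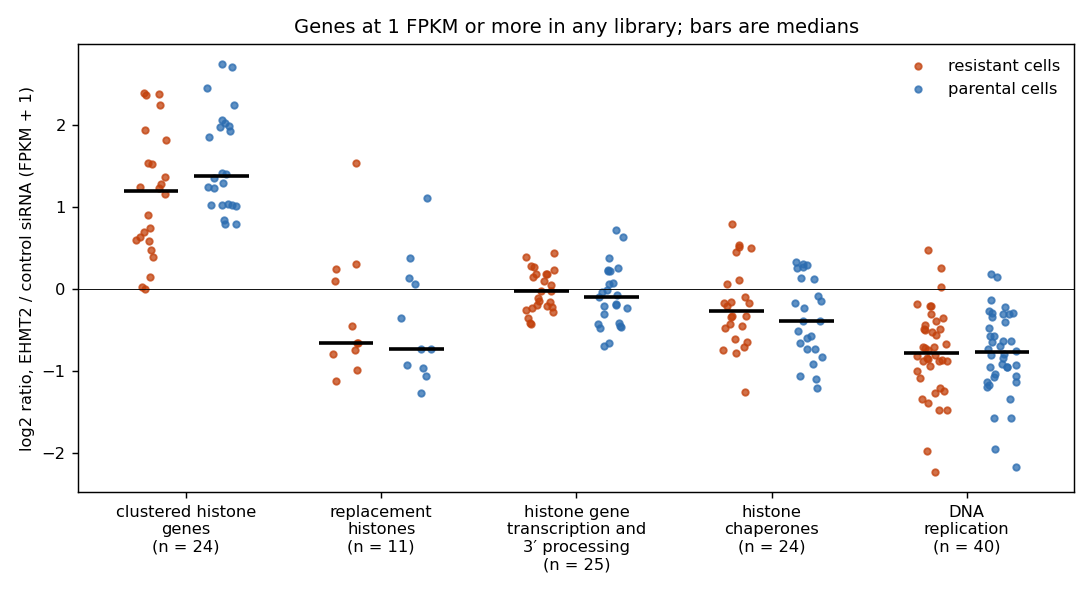
Log2 ratio of EHMT2 siRNA to control siRNA (FPKM with 1 added, vertical axis) for each gene at 1 FPKM or more in any library of 5 gene groups, in resistant and parental cells; horizontal bars are medians. The clustered histone genes have medians of 1.37 in parental and 1.19 in resistant cells, and DNA replication genes -0.77 and -0.78; 11 of the 24 histone genes reached 1 FPKM only with EHMT2 siRNA.

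Features that could accompany the capture of untailed or intron-free RNA were given the same comparison where values were listed. Of 21 RNAs without a poly(A) tail, such as small nuclear RNAs, none was listed, so none could be compared. Genes at 0 FPKM are listed, so this absence is no measure of capture. Among 162 measured single-exon protein-coding genes outside the clusters, the median ratio with EHMT2 siRNA was 0.20 in parental and 0.27 in resistant cells, against 0.09 and 0.06 over all genes. At least 2-fold higher were 16 of 153 of these in parental and 10 of 143 in resistant cells. These medians stood well below those of the clustered histone genes, and the part of RNA capture in the histone ratios was not tested.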

How the data were processed

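RNA was sequenced in 6 HCT116 libraries, 1 per group, grouped by the sample titles. The authors deposited FPKM values, 1 table of 19957 rows per library, made from TruSeq RNA v2 libraries of total RNA, per the labels' protocols. HISAT2 2.2.1, StringTie 2.1.1, cutadapt 4.9, FastQC 0.12.1 and build GRCh38 are listed, with no roles, in the submitters' processing notes. For the annotation release, strand setting and multiply mapped reads, the settings were not given in the sources used here. Of repeated symbols the row with the highest mean was kept. Near-identical histone copies may share reads, and counting error is unknown without counts.

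Ratios are log2 of FPKM with 1 added. Pairs were counted at 2-fold among genes at 1 FPKM or more in either library. An additive model of line and treatment was fitted to genes that reached 1 FPKM in 3 libraries or more, with limma 3.58.1 (R 4.3.3, trend), with Benjamini-Hochberg adjustment over all genes at 0.05; it was tested on simulated data. The 6-library and 4-library fits have 2 and 1 residual degrees of freedom. Gene models are GENCODE 29, with 69 of 71 genes matched by identifier and 2 by symbol. The genes and lists were chosen with earlier results of these data known. Every measured clustered histone gene was named, with the genes of other lists that stood highest or lowest, passed a test or were always to be named; of these only some are printed. Alternatives were other pseudocounts, thresholds, scalings and folds, summing near-identical copies, and leaving out libraries. The thresholds on untransfected or control siRNA libraries were chosen after seeing the data.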

Additional observations from a re-analysis of the deposited data

Results flagged for a closer look

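The difference between the lines changed sign with treatment. The median log2 ratio of resistant to parental cells over the 24 measured genes was 0.46 when untransfected, -0.016 with control siRNA and -0.47 with EHMT2 siRNA. The last value rests partly on genes measured only in the parental EHMT2 siRNA library: over the 13 genes measured in untransfected cells the medians were 0.65, -0.03 and -0.11, and over the 9 measured with control siRNA 0.65, -0.08 and -0.11. With 1 library per group these differences were not tested. HIST1H2BC stood higher in resistant cells when untransfected, at 1.10, and lower with control siRNA, at -0.55, and with EHMT2 siRNA, at -0.63. HIST2H2AC had 1.09, 0.0067 and -0.11 in the same order. Control siRNA against untransfected gave HIST1H2BC -1.24 in resistant and 0.40 in parental cells, and HIST2H2AC -1.07 and 0.0075, also not tested.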

How the results depend on the processing

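No result reversed. No paired analysis was possible because each group holds only replicate number 1. At 5 FPKM, 10 genes were measured. For EHMT2 siRNA against control siRNA, the median was 2.25 in resistant and 2.54 in parental cells with a pseudocount of 0.1, 0.00 and 0.47 over all 71 genes, 1.88 and 2.02 at 5 FPKM, and 1.98 in parental cells for the 13 genes measured in untransfected cells. The 2-fold higher counts of 13 of 17 in resistant and 21 of 24 in parental cells became 6 of 6 and 9 of 9 at 5 FPKM, 4 and 6 at 4-fold, and 12 of 13 in parental cells by the untransfected threshold. Over the 9 genes measured with control siRNA, the medians were 1.82 in resistant and 1.98 in parental cells, with 7 and 8 genes 2-fold higher. For untransfected lines, 2 genes 2-fold higher became 0 at 5 FPKM, 8 at 1.5-fold, 0 at 4-fold and 0 among those 9, and 0 lower became 1 with a pseudocount of 0.1 and 1 at 1.5-fold. With control siRNA, 0 higher became 1 under each of those settings. With EHMT2 siRNA, 2 lower became 4 with a pseudocount of 0.1, 6 at 1.5-fold, 1 after quantile normalisation, 1 after centring, and 0 at 5 FPKM, at 4-fold and by the untransfected or control siRNA threshold. For control siRNA against untransfected resistant cells, the median of -0.68 became -1.39 with a pseudocount of 0.1 and 0.00 over all 71 genes, and 7 lower became 11, 4 at 5 FPKM, 12 at 1.5-fold, 0 at 4-fold and 4 of the 9. In parental cells, 1 lower became 4 with a pseudocount of 0.1, 5 at 1.5-fold, and 0 at 5 FPKM, at 4-fold and after rescaling. The EHMT2 siRNA term called 0 of 13 genes in the 6-library fit, 8 of 9 in the 4-library fit and 3 of 3 at 5 FPKM. Calls of this term and of the control siRNA term also depended on which library was left out. The share of all genes called at 5 FPKM or with 1 library left out is not given here. Fewer genes were tested at 5 FPKM, whereas the 4-fold setting counted the same genes against a higher fold. The cause of these changes was not tested. Leaving out a library was not possible for pairs. Rescaling to the same sum moved the median of all genes by 0.11 for knockdown in parental cells, 0.21 for untransfected lines and 0.15 for control siRNA in parental cells, and changed no knockdown sign. Quantile normalisation changed the sign of 6 of 24 line ratios with EHMT2 siRNA. Summing near-identical copies moved no count or median by over 1.5-fold. Most control siRNA values lie close to the lowest listed FPKM, so ratios of genes under 1 FPKM there are imprecise.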
